A study of Mus musculus with 8 samples.

Results

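Platelet and megakaryocyte genes were followed in mouse lung after mepenzolate, in a set of 10 genes chosen by name: Itga2b, Itgb3, Gp9, Gp1ba, Gp6, Tubb1, Alox12, Pf4, Ppbp and Treml1. Of these 10 genes, 8 had an array probe that carries exactly 1 gene symbol, each of the 8 had 1 such probe, and all 8 were bright enough to be tested, among 14953 genes tested and 19937 measured. Gp1ba and Gp6 have no value here, because no named probe carried their symbols. The arrays measured total RNA of lung tissue from 4 groups of 2 arrays each, 8 in all. They were mepenzolate at 7 h, vehicle at 7 h, mepenzolate at 25 h and vehicle at 25 h after dosing. Mepenzolate, a muscarinic receptor blocker, was given into the trachea in phosphate-buffered saline. The mice of all 8 arrays, vehicle included, were anaesthetised with chloral hydrate (500 mg/kg). The labels name the controls as vehicle and give no strain, age or sex, and whether a group's 2 arrays stem from different animals is not stated. P-values therefore measure the spread between these arrays, which may be technical.

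Platelets are cell fragments shed by megakaryocytes, large cells of the bone marrow that are also found in the lung, where they release platelets into the circulation. Platelets lack a nucleus and carry RNA from their parent cell, so the genes below mark platelets and megakaryocytes together in whole tissue. A platelet binds von Willebrand factor and collagen at a damaged vessel wall, releases granules that hold chemokines, and is cross-linked to other platelets by fibrinogen through an integrin. In bulk lung RNA, fewer platelets or megakaryocytes and less of an RNA in each of them cannot be told apart.

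At 7 h all 8 measured genes had a lower mean under mepenzolate than under vehicle, with a median log2 difference of -0.42 against -0.01 over all genes tested, of which 56.4% were lower. The integrin chain gene Itga2b, the glycoprotein gene Gp9 and the tubulin gene Tubb1 differed by about 0.5 to 0.6 log2 units, while Itgb3 and Treml1 differed little. At 25 h the median difference was -0.03, against -0.02 over all genes tested. No gene passed the test across all genes at either time (limma with Benjamini-Hochberg adjustment, threshold 0.05), so none of these differences was called.

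Promoters are printed for 6 of the genes, to set the 3 with the lowest differences at 7 h beside the neighbouring chemokine genes Pf4 and Ppbp and beside Treml1, whose values ran apart from the others. Each sequence is the 150 bases before the 1 start per gene that the RefSeq promoter table of GRCm38.p6 uses, read 5′ to 3′ on the gene's strand. For Gp9 that start lies 1939 bases inside the gene's full RefSeq span, so its window, with the match in it, falls within the annotated gene. The other 5 starts are at the edge of their gene's span. Capitals mark letters that GATA or ETS factors can bind, which are known regulators of megakaryocyte genes. The GATA letters searched were AGATAA, and the same run with T as the first base, TGATAA. For ETS factors the letters were CCGGAA, along with the purine-rich form AGGAAG, and both strands were searched. The windows are chr11:102469884-102470033 on the minus strand for Itga2b, chr6:87777920-87778069 for Gp9, chr2:174450445-174450594 for Tubb1, chr5:90772285-90772434 for Pf4, chr5:90768368-90768517 for Ppbp and chr17:48359766-48359915 for Treml1, these 5 on the plus strand.
Itga2b: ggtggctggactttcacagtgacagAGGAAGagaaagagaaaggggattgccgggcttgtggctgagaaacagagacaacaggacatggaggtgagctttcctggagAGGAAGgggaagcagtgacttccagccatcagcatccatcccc
Gp9: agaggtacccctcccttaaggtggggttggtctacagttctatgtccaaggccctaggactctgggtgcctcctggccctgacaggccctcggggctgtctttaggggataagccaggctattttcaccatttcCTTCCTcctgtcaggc
Tubb1: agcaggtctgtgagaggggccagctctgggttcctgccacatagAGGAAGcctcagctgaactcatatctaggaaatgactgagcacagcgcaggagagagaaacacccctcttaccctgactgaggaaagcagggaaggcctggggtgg
Pf4: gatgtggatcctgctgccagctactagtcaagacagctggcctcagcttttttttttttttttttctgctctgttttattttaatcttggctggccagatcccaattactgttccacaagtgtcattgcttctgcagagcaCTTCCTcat
Ppbp: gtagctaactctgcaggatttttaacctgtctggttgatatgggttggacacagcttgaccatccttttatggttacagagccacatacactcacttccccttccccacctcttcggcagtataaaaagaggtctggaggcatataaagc
Treml1: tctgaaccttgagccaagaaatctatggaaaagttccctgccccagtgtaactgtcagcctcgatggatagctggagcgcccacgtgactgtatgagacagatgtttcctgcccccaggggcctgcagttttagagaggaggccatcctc

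In the full windows of the table, from 250 bases before to 50 after the start, 9 of the 10 genes had an entry. The ETS letters were in 5 of these 9 windows (Itga2b, Gp9, Gp1ba, Tubb1 and Pf4) and in 45.2% of the 32851 windows of the table. The GATA letters were in 3 of the 9 (Gp1ba, Gp6 and Pf4) and in 18.6% of all windows, and both were in 2 of the 9 and in 7.61% of all. Matches did not overlap each other. Itga2b, Gp9 and Tubb1, with the lowest differences at 7 h, each held AGGAAG on one strand. Pf4, which differed by only -0.20 at 7 h, held 2 ETS matches and 1 GATA match. Alox12, at -0.45, held none of the letters, and neither did Treml1 and Ppbp. The matches thus did not follow the order of the differences. A match is a description of the sequence only.

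Itga2b encodes the alpha chain of the fibrinogen receptor, which is largely restricted to megakaryocytes and platelets. Its log2 level on the mepenzolate arrays at 7 h was 7.47 and 7.35, against 7.93 and 8.001 on the vehicle arrays. At 25 h it was 7.95 and 8.16 on the mepenzolate arrays, against 7.84 and 8.0001 on the vehicle arrays. The 2 mepenzolate arrays at 7 h lay below the other 6, and the groups overlapped at 25 h. The difference, mepenzolate minus vehicle, was -0.55 ± 0.10 (moderated standard error) at 7 h, or 0.682 of the vehicle level, with limma adjusted p = 1.00. At 25 h it was 0.14 ± 0.10 (limma adjusted p = 0.979).

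Itgb3 encodes the beta chain that pairs with Itga2b in that receptor. Unlike the alpha chain, it also pairs with the alpha V integrin chain on other cells, such as endothelium. Its log2 level at 7 h was 8.77 and 8.53 on the mepenzolate arrays, against 8.84 and 8.72 on the vehicle arrays. The 25 h levels were 9.02 and 8.86 on the mepenzolate arrays, against 8.81 and 9.02 on the vehicle arrays. Groups overlapped at both times. The difference was -0.13 ± 0.12 at 7 h and 0.03 ± 0.12 at 25 h, and the 95% interval at 7 h ran from -0.40 to 0.14.

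Gp9 encodes glycoprotein IX, a small subunit of the receptor for von Willebrand factor. At 7 h its log2 level was 7.83 and 7.66 on the mepenzolate arrays, against 8.46 and 8.16 on the vehicle arrays. On the arrays of 25 h it was 8.36 and 8.25 under mepenzolate, against 8.34 and 8.36 under vehicle. The 2 mepenzolate arrays at 7 h again lay below the other 6. The difference was -0.57 ± 0.12 at 7 h, or 0.676 of the vehicle level, with limma adjusted p = 1.00. The 25 h difference was -0.04 ± 0.12.

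Tubb1 encodes the beta tubulin of the marginal band, the ring of microtubules that gives a resting platelet its disc shape. Its log2 level at 7 h was 8.54 and 8.32 on the mepenzolate arrays, against 8.98 and 8.88 on the vehicle arrays. The 25 h levels were 8.996 and 8.82 on the mepenzolate arrays, against 8.88 and 8.999 on the vehicle arrays. The pattern was that of Itga2b and Gp9, with both mepenzolate arrays at 7 h below the rest. The difference was -0.50 ± 0.11 at 7 h, or 0.706 of the vehicle level (limma adjusted p = 1.00), and -0.03 ± 0.11 at 25 h.

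Alox12 encodes the platelet 12-lipoxygenase, which oxidises arachidonic acid. At 7 h its log2 level was 7.41 and 6.94 on the mepenzolate arrays, against 7.62 and 7.63 on the vehicle arrays. The levels at 25 h were 7.63 and 7.52 on the mepenzolate arrays, against 7.62 and 7.63 on the vehicle arrays. Both mepenzolate arrays at 7 h were below the other 6, but with an SD of 0.33 between them, against 0.01 in the vehicle group of that time. The difference was -0.45 ± 0.14 at 7 h (limma adjusted p = 1.00) and -0.05 ± 0.14 at 25 h.

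Pf4 and Ppbp are CXC chemokine genes of the platelet alpha granule that lie next to each other on chromosome 5, with 0 annotated genes starting between them. Pf4, platelet factor 4, stood at log2 levels of 7.97 and 7.78 on the mepenzolate arrays at 7 h, against 8.07 and 8.07 on the vehicle arrays. The 25 h arrays gave 8.19 and 8.03 on the mepenzolate arrays, against 8.40 and 8.17 on the vehicle arrays. The 2 mepenzolate arrays at 7 h lay below the other 6, though by little, and the groups overlapped at 25 h, with differences of -0.20 ± 0.11 and -0.17 ± 0.11. Ppbp, the precursor of neutrophil-activating chemokine forms, stood at 10.63 and 9.99 on the mepenzolate arrays at 7 h, against 10.67 and 10.72 on the vehicle arrays. The 25 h arrays gave 11.18 and 10.53 on the mepenzolate arrays, against 10.86 and 10.78 on the vehicle arrays. Its replicates were far apart under mepenzolate at both times (SD 0.45 and 0.46) and close under vehicle (SD 0.04 and 0.06). The Ppbp difference at 7 h was -0.39 ± 0.24, with a 95% interval from -0.93 to 0.16, and at 25 h 0.04 ± 0.24.

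Treml1 encodes an immunoglobulin-domain receptor stored in platelet granules and brought to the surface on activation. Its log2 level at 7 h was 7.44 and 7.80 on the mepenzolate arrays, against 7.70 and 7.69 on the vehicle arrays. The 25 h levels were 7.66 and 7.64 on the mepenzolate arrays, against 7.80 and 7.79 on the vehicle arrays. The 7 h mepenzolate arrays lay on both sides of the vehicle arrays, and at 25 h both mepenzolate arrays lay below both vehicle arrays, as in 22.4% of all genes tested. The difference was -0.08 ± 0.11 at 7 h and -0.15 ± 0.11 at 25 h (limma adjusted p = 1.00 and 0.979).

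**Figure D1:**
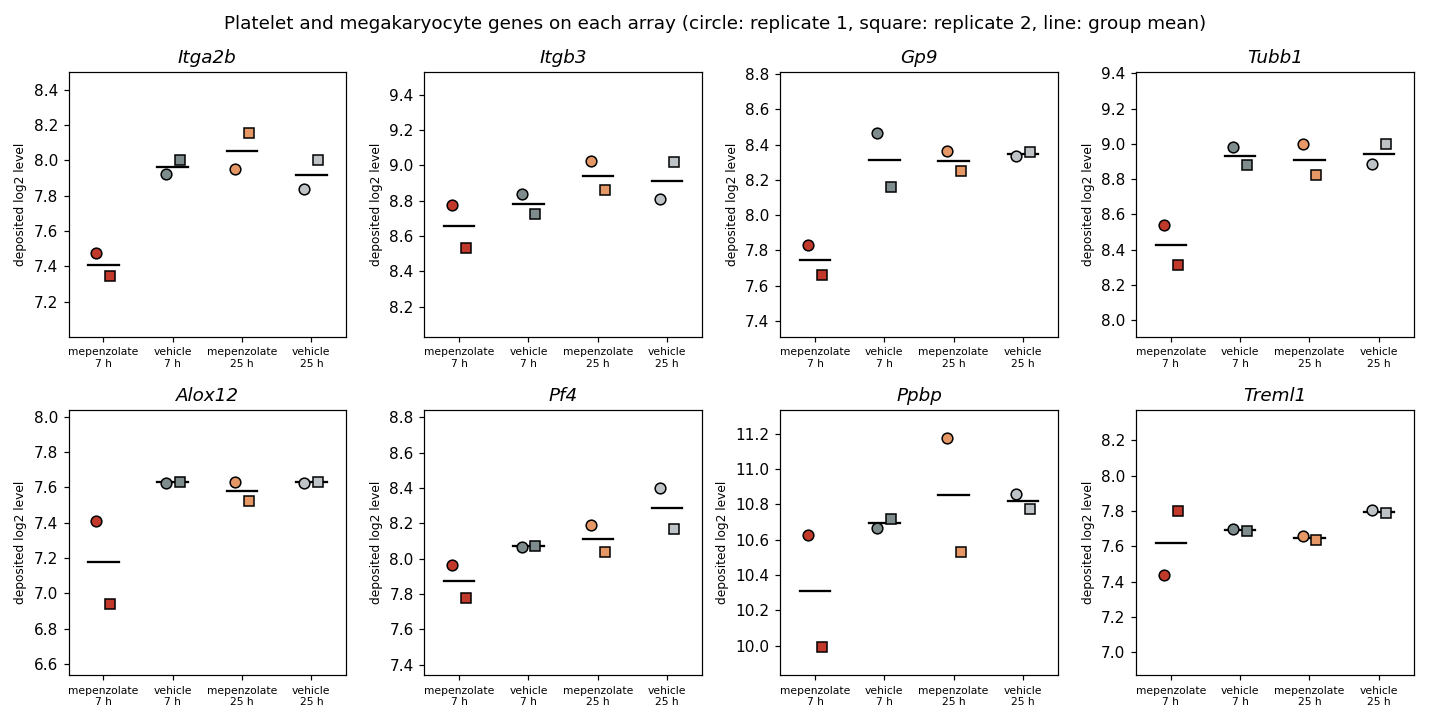
Deposited log2 level (vertical axis, 1.5 log2 units in each panel) of the 8 measured genes in each group (horizontal axis), with replicate 1 as a circle, replicate 2 as a square and a line at the mean of the 2 arrays. For Itga2b, Gp9, Tubb1, Alox12 and Pf4 both mepenzolate arrays at 7 h lie below the other 6 arrays, while Treml1 shows no such gap. The share of all genes tested with this pattern is not given here, so how unusual it is cannot be read from the figure.

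At 7 h the 8 genes thus ran from -0.57 (Gp9) to -0.08 (Treml1). No member passed limma after adjustment, as no gene of the 14953 did (0% called). At an unadjusted p under 0.05, 4 of the 8 genes were lower (Itga2b, Gp9, Tubb1 and Alox12), against 1.65% of all genes tested that were lower at that level. In 6 of the 8 the mepenzolate arrays did not overlap the vehicle arrays and were lower, against 15.5% of all genes tested. The genes were chosen with earlier results of these data known, so these counts describe the genes and carry no test of their own. With 2 arrays against 2, an exact permutation test of a single gene cannot fall below p = 0.333.

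At 25 h, where the study looked at gene sets, 5 of the 8 genes were lower and 3 higher, where 58.7% of all genes tested were lower, and 0 had an unadjusted p under 0.05. The background was 0% called after adjustment and 4.01% of genes at an unadjusted p under 0.05. The differences ran from -0.17 (Pf4) to 0.14 (Itga2b). The 95% interval of the 25 h difference ran from -0.10 to 0.37 for Itga2b, from -0.30 to 0.23 for Gp9 and from -0.28 to 0.21 for Tubb1. For these 3 genes the interval at 25 h did not hold the difference measured at 7 h. The same was true of Alox12, with an interval from -0.37 to 0.27 at 25 h against -0.45 at 7 h. The 7 h differences have errors of their own, so this is no test between the times. Ppbp, with an interval from -0.51 to 0.58 at 25 h, was measured too loosely to place.

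**Figure D2:**
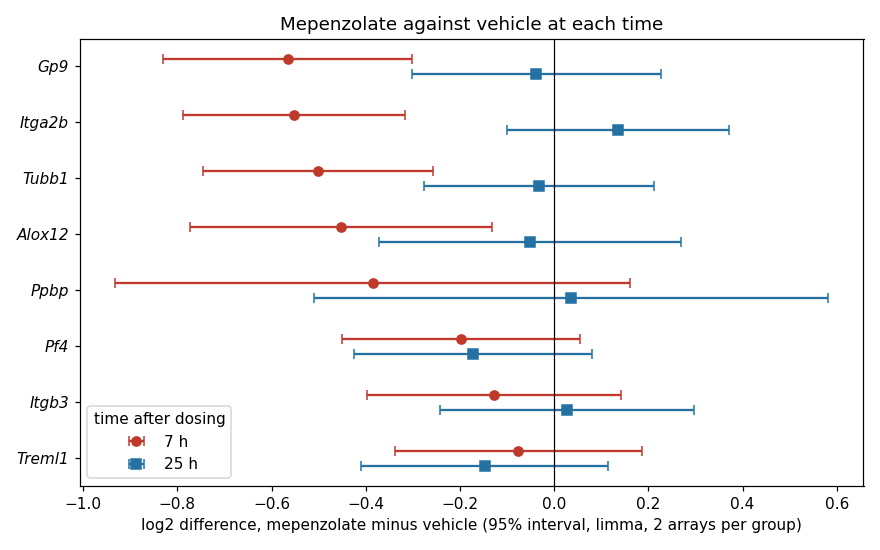
Log2 difference, mepenzolate minus vehicle (horizontal axis), of each gene (vertical axis) at 7 h (circles) and 25 h (squares), with 95% limma intervals from 2 arrays per group. At 7 h the intervals of Gp9, Itga2b, Tubb1 and Alox12 lie below 0, and at 25 h every interval holds 0. The intervals are not adjusted for the number of genes.

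The change of the mepenzolate effect between the times was tested as an interaction. The effect at 25 h minus the effect at 7 h was 0.69 ± 0.14 for Itga2b, 0.53 ± 0.16 for Gp9 and 0.47 ± 0.15 for Tubb1 (limma adjusted p = 1.00 for each). Over all genes 0% were called, so a difference between the times was not shown. The interaction was above 0 in 7 of the 8 genes, against 48.3% of all genes tested. The 3 genes were the only ones of the 8 at an unadjusted p under 0.05, a level reached in the same direction by 1.42% of all genes tested. Pf4 differed least between the times (0.03 ± 0.16).

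Averaged over both times, all 8 genes were lower in mepenzolate lungs, with a median difference of -0.20. Over all genes tested it was -0.02, and 60% were lower. The median of the 8 was -0.42 at 7 h and -0.03 at 25 h. Except for Pf4 (-0.20 and -0.17) and Treml1 (-0.08 and -0.15), the averages thus came mainly from the 7 h arrays. The averages ran from -0.30 ± 0.08 for Gp9 to -0.05 ± 0.08 for Itgb3, and 0 passed after adjustment (0% of genes called, limma adjusted p = 0.999 for each of the 8). At an unadjusted p under 0.05, 5 of the 8 were lower, against 2.59% of all genes tested. In 0 of the 8 did the 4 mepenzolate arrays lie wholly below the 4 vehicle arrays, against 1.81% of all genes tested.

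Between 7 h and 25 h in mepenzolate lungs, a comparison that shares the low 7 h arrays with the treatment comparison, all 8 genes were higher at 25 h, by a median of 0.44 against -0.01 over all genes tested, of which 47.9% were higher. In 6 of the 8 the arrays of the times did not overlap, against 12.5% of all genes that were higher without overlap. Itga2b had the smallest p of the 8, with 0.64 ± 0.10 (limma adjusted p = 0.160). Gp9 differed by 0.56 ± 0.12, Tubb1 by 0.48 ± 0.11, Alox12 by 0.40 ± 0.14 and Itgb3 by 0.29 ± 0.12, with adjusted p from 0.301 to 0.757. Markers of some other blood cells were also higher at 25 h in this comparison, but not those of all. Of 11 neutrophil markers 5 were higher and 6 lower (median -0.01). The 4 mast cell and basophil markers were 2 higher and 2 lower (median -0.06), and the 3 erythroid markers 2 higher and 1 lower (median 0.05). All 5 B cell markers tested (median 0.67) and all 5 T cell markers tested (median 0.37) were higher without overlap and at an unadjusted p under 0.05, and 5 of 6 monocyte markers were higher (median 0.35). The T cell receptor complex gene Cd3g differed by 0.80 ± 0.10 (limma adjusted p = 0.0964). The part of these cells in the platelet values was not tested. No member passed, where 0.0268% of all genes did, and 5 of 8 were higher at an unadjusted p under 0.05, against 3.28% of all genes. In vehicle lungs, which share no array with the mepenzolate time course, 6 of the 8 were higher and 2 lower at 25 h than at 7 h, with a median of 0.07, where 49.9% of all genes tested were higher. In that comparison 0.0869% of all genes were called and 0 of the 8, and 0 of the 8 had an unadjusted p under 0.05, against 5.74% of all genes. Alox12 differed by 0.00 ± 0.14 and Tubb1 by 0.01 ± 0.11 in vehicle lungs. There too all 5 B cell markers (median 0.50) and all 6 monocyte markers (median 0.20) were higher at 25 h. The T cell markers were 3 higher and 2 lower (median 0.02).

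The 2 mepenzolate arrays at 7 h did not carry the low values equally. Relative to each gene's mean over the 8 arrays, the 8 genes averaged -0.19 on replicate 1 and -0.40 on replicate 2 of that group. The other 6 arrays lay between 0.03 and 0.18. In that group 7 of the 8 genes were lower on replicate 2 than on replicate 1, with Treml1 the exception. The mepenzolate group at 25 h also had 7 of the 8 lower on replicate 2, by a median of -0.14, against -0.20 in the 7 h group. Over all genes tested the median of replicate 2 minus replicate 1 was -0.03 at 25 h and -0.05 at 7 h under mepenzolate (SD 0.20 and 0.23). Without replicate 2 the median difference at 7 h was -0.24, and without replicate 1 it was -0.61. Itga2b stood at -0.49 without replicate 2 and -0.62 without replicate 1, Gp9 at -0.48 and -0.65, and Tubb1 at -0.39 and -0.61. Alox12 (-0.22 and -0.69), Ppbp (-0.07 and -0.70), Pf4 (-0.10 and -0.29) and Itgb3 (-0.01 and -0.25) depended more on which array was used. Treml1 stood at 0.10 without replicate 1 and at -0.26 without replicate 2.

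**Figure D3:**
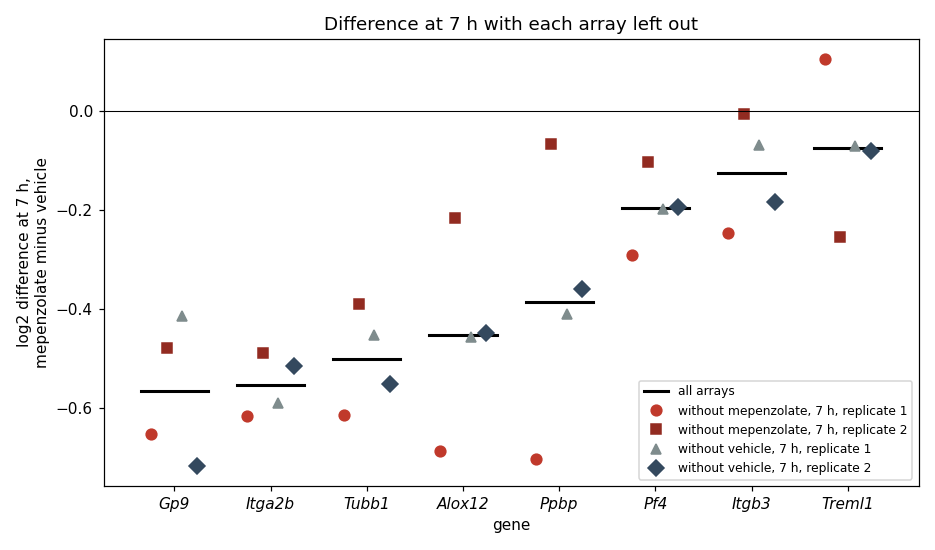
Log2 difference at 7 h, mepenzolate minus vehicle (vertical axis), of each gene (horizontal axis) with all arrays (line) and with each of the 4 arrays of that time left out (symbols). Gp9, Itga2b and Tubb1 stay below -0.35 each time, while Ppbp and Itgb3 come near 0 without mepenzolate replicate 2, and Treml1 passes above 0 without mepenzolate replicate 1.

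Markers of other tissues also differed on the mepenzolate arrays at 7 h. On replicate 2 the liver, ciliated cell and club cell lists stood apart from the other 7 arrays. The 4 liver markers tested of 7 listed averaged 1.05 on that array and from -0.25 to -0.09 on the other 7 arrays, relative to each gene's mean. The 6 ciliated cell markers averaged -0.44 there against 0.16 on replicate 1, and 0.00 and 0.08 on the vehicle arrays of that time. The 6 club cell markers averaged 0.01 and -0.51 on the mepenzolate arrays at 7 h, against 0.25 and 0.21 on the vehicle arrays. The 8 cardiac muscle markers averaged -0.37 and -0.20 on the mepenzolate arrays, against 0.10 and 0.09 on the vehicle arrays, so both were low and replicate 1 was the lower. At 7 h 5 of the 6 club cell markers and 7 of the 8 cardiac markers were lower. The part of these tissue differences in the platelet values was not tested.

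Other blood and vessel cells could be read on the same arrays. At 7 h the 11 neutrophil markers tested of 12 averaged -0.04 and -0.06 on the mepenzolate arrays, against 0.00 and -0.22 on the vehicle arrays, with 8 higher and 3 lower. The calprotectin gene S100a8 stood at 0.51 ± 0.17 (limma adjusted p = 1.00). The 3 erythroid markers tested of 10 listed averaged -0.15 and 0.20 on the mepenzolate arrays, against -0.12 and -0.11 on the vehicle arrays. The haem synthesis gene Alas2 stood at 0.07 ± 0.13. The 10 endothelial markers averaged 0.04 and -0.03 on the mepenzolate arrays, against 0.02 and 0.02 on the vehicle arrays, with 5 higher and 5 lower, and Cdh5, vascular cadherin, stood at 0.00 ± 0.08. The 5 T cell markers averaged -0.20 and -0.17 on the mepenzolate arrays, against -0.02 and -0.09 on the vehicle arrays, with 0 higher and 5 lower. The 5 alveolar macrophage markers tested were also 0 higher and 5 lower, with -0.14 and -0.07 on the mepenzolate arrays, against -0.05 and 0.02 on the vehicle arrays. Of the 5 B cell markers tested 4 were lower, with -0.40 and -0.28 on the mepenzolate arrays, against -0.05 and -0.46 on the vehicle arrays. Their part in the platelet values was not tested. The defining mast cell and basophil genes Cpa3, Ms4a2 and Mcpt8 were below the filter level on average. Sftpc, a surfactant gene that marks lung, stood at a log2 level of 13.49 to 13.56 on all 8 arrays.

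**Figure D4:**
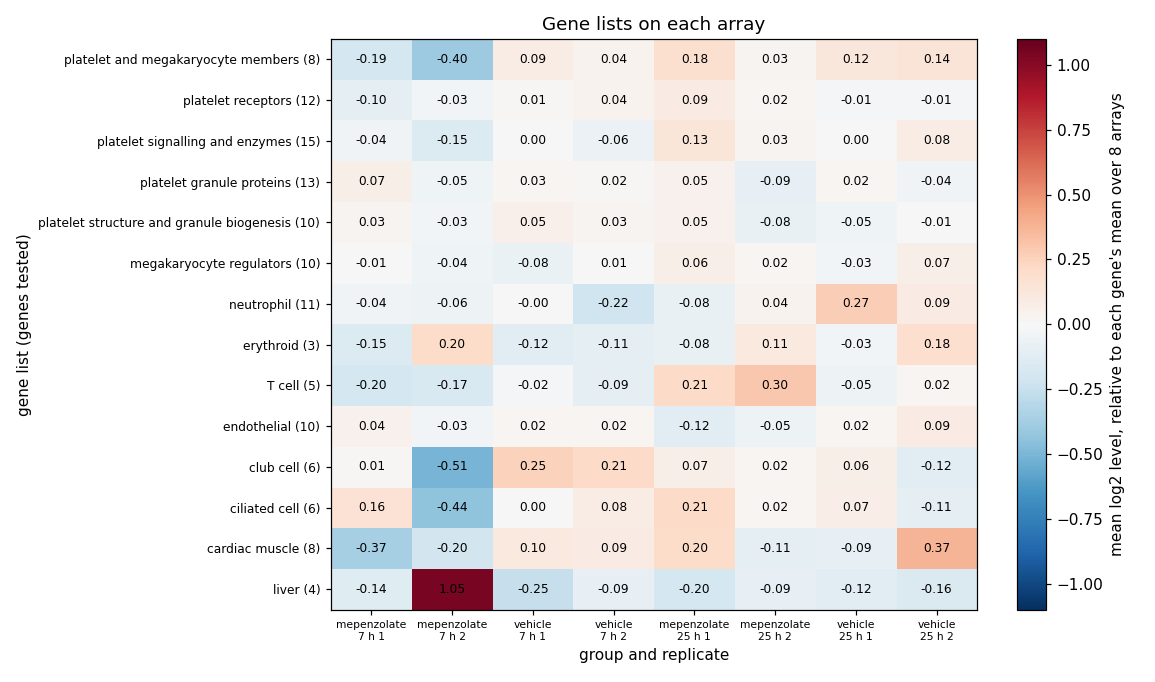
Mean log2 level of a selection of the gene lists (rows, with the number of genes tested) on each of the 8 arrays (columns, by group and replicate). Levels are relative to each gene's mean over the arrays, with red higher and blue lower. The B cell, monocyte, alveolar macrophage, mast cell and basophil, alveolar type 1, alveolar type 2 and coagulation lists are not drawn. The platelet and megakaryocyte genes are lowest on the 2 mepenzolate arrays at 7 h (-0.19 and -0.40), and the liver list is highest on replicate 2 of that group (1.05).

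Further genes of platelet biology were read from 5 lists that did not include the 8. At 7 h 11 of 12 platelet receptors tested were lower in mepenzolate lungs, against 56.4% of all genes tested, with a median of -0.11. In 7 of the 12 the arrays did not overlap and were lower, against 15.5% of all genes. The companion lists were also chosen with earlier results of these data known, and they were read on the same arrays. Their counts describe the lists and carry no test of their own. At 25 h 5 of the 12 were lower. P2ry12, the ADP receptor that clopidogrel blocks, stood at -0.39 ± 0.14 (limma adjusted p = 1.00), with log2 levels of 6.65 and 6.64 on the mepenzolate arrays against 7.25 and 6.81 on the vehicle arrays. It was the only one of the 12 at an unadjusted p under 0.05, a level at which 1.65% of all genes tested were lower. Gp5, another subunit of the von Willebrand factor receptor, stood at -0.11 ± 0.11, P2rx1, an ATP-gated channel, at -0.05 ± 0.13 and F2rl3, a thrombin receptor, at -0.03 ± 0.20. The podoplanin receptor gene Clec1b was below the filter and untested, at 5.66 and 5.48 on the mepenzolate arrays against 5.97 and 5.82 on the vehicle arrays. Gp1bb, Selp and Thpo have no value here.

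Genes of platelet signalling were lower at 7 h in 14 of 15 cases, against 56.4% of all genes tested. Their median of -0.02 was close to the -0.01 over all genes tested. In 1 of the 15 the arrays did not overlap and were lower, against 15.5% of all genes tested. At an unadjusted p under 0.05 there were 0 of the 15. Rgs18, a regulator of G protein signalling abundant in platelets, stood at -0.39 ± 0.17, with 7.51 and 7.06 on the mepenzolate arrays against 7.88 and 7.47 on the vehicle arrays, which overlap. Fermt3, kindlin-3, which activates integrins, stood at -0.07 ± 0.08 and Rasgrp2, an activator of Rap1, at -0.01 ± 0.12. Of granule protein genes, 8 of 13 were lower (median -0.04), with von Willebrand factor, Vwf, at -0.10 ± 0.10, multimerin, Mmrn1, at 0.26 ± 0.16, the coagulation factor F13a1 at -0.07 ± 0.14 and thrombospondin, Thbs1, at 0.06 ± 0.16. Vwf and Thbs1 are also made by other lung cells. Of genes of platelet structure and granule formation, 6 of 10 were lower (median -0.04), with Nbeal2, needed for alpha granules, at 0.07 ± 0.09.

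Of the regulators of the megakaryocyte lineage, 6 of 10 at 7 h were higher and 4 lower in mepenzolate lungs, with a median of 0.02 and 0 at an unadjusted p under 0.05. The transcription factors Gata1, Gfi1b and Nfe2 stood at -0.07 ± 0.10, -0.09 ± 0.13 and -0.05 ± 0.12. Fli1, Runx1 and Zfpm1, which other blood cells and endothelium also use in part, stood at -0.05 ± 0.12, 0.00 ± 0.09 and 0.08 ± 0.09. In none of these companion lists did a gene pass limma in any of the comparisons. At 25 h the medians of the 5 companion lists of platelets and megakaryocytes lay between 0.00 and 0.06. P2ry12 stood at 0.18 ± 0.14 and Rgs18 at 0.31 ± 0.17 at that time, both higher without overlap of arrays, a pattern found in 14.2% of all genes tested. Between 7 h and 25 h in mepenzolate lungs Rgs18 differed by 0.65 ± 0.17, P2ry12 by 0.40 ± 0.14 and Gata1 by 0.29 ± 0.10 (limma adjusted p = 0.433, 0.624 and 0.613). In vehicle lungs the same 3 genes differed by -0.05 ± 0.17, -0.18 ± 0.14 and 0.06 ± 0.10. The companion lists were mixed between the times in mepenzolate lungs. Higher at 25 h were 9 of 12 receptors, 11 of 15 signalling genes and 7 of 10 regulators (medians 0.13, 0.16 and 0.06). Only 5 of 13 granule protein genes and 4 of 10 structure genes were higher (medians -0.03 and -0.02), and Thbs1 differed by -0.38 ± 0.16.

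Across the 8 arrays the genes varied together apart from Treml1. The correlation of each gene with the mean of the other 7 was 0.98 for Tubb1, 0.94 for Gp9, 0.93 for Alox12, 0.82 for Itgb3, 0.81 for Ppbp, 0.81 for Pf4, 0.80 for Itga2b and 0.08 for Treml1. Over the 28 pairs of genes the median r was 0.77, the highest 0.97 (Gp9 with Tubb1) and the lowest -0.13 (Ppbp with Treml1), and 3 pairs were below 0. These values describe 8 arrays that share the low mepenzolate group at 7 h, so they are not independent of the difference described above. The SD over the arrays was larger for Ppbp (0.34), Gp9 (0.28) and Itga2b (0.28) than for 97% or more of the genes tested, and that of Treml1 (0.12) larger than for 62.0%.

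The genes whose values ran most closely with the mean of the 8 over the arrays were, among 3292 genes with an SD of at least 0.15, Cops8 (r = 0.95), 4430402I18Rik (0.94), Zc3h6 (0.94), Smim3 (0.93), Gm5617 (0.92), Scgb3a1 (0.92), Clmn (0.91), Acoxl (0.90), Dio2 (0.90) and Elp4 (0.90). Cops8, a subunit of the COP9 signalosome, stood at log2 levels of 9.29 and 8.98 on the mepenzolate arrays at 7 h, against 9.45 and 9.46 on the vehicle arrays. At 25 h it stood at 9.48 and 9.32 on the mepenzolate arrays, against 9.49 and 9.47 on the vehicle arrays. Scgb3a1, a secretoglobin of airway secretory cells, stood at 12.38 and 12.06 on the mepenzolate arrays at 7 h, against 12.72 and 12.74 on the vehicle arrays. None of the 10 is among the platelet lists. They were picked for their likeness over the same 8 arrays, and no p-value is attached to them.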

How the data were processed

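Lung RNA was measured on Affymetrix mouse gene arrays. The log2 values deposited by the authors were made with RMA (background correction, normalization between arrays and probe summary), per the submitters' processing notes, which name it without a version. Values ran from 2.00 to 13.98 and array medians from 6.70 to 6.77. The arrays' number limits the precision. The platform annotation gave 1 gene symbol to 21640 of 34760 probes and several to 1321, while 11799 were unnamed here. The brightest probe per gene by mean over 8 arrays gave 19937 genes, of which 14953 at or above the 25th percentile (log2 5.93) were tested.

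Groups came from the array titles. Limma 3.58.1 in R 4.3.3 fitted 1 mean per group with 1 shared spread (4 residual and 4.09 prior degrees of freedom), with Benjamini-Hochberg adjustment over all genes tested. Errors are moderated standard errors. The comparisons share arrays. Alternatives were no filter or a stricter one, array weights, averaging a gene's probes, quantile normalization, centring each array on its median, eBayes with robust estimation and an intensity trend, a fit of the compared groups alone, a replicate block, and omission of each array in turn. A simulation of the 7 h comparison (14953 genes, 50 altered per size) recovered 0% of log2 changes of 0.25, 48% at 0.5 and 100% at 1 and at 2. It made 132 calls, of which 8 were false. All sizes shared the adjustment, so genes with large changes made calls easier for those with smaller ones. The measured comparison called 0 genes, so these shares do not give its own rate of recovery.

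Members and lists were chosen with earlier results of these data known. All members were named, companion genes by a fixed list of names, the first 3 markers of other cell types could be named, and the 10 genes most alike by Pearson r. Promoter sequences are from RefSeq (GRCm38.p6). Protein sequences were not used here. Replicate numbers were not taken as pairs: deviations of same-numbered arrays correlated at -0.02 to 0.40 over 6 pairs of groups. The highest values were 0.40 between the 2 mepenzolate groups and 0.33 between the treatments at 7 h. A factor shared by same-numbered arrays in some groups is therefore not excluded.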

Additional observations from a re-analysis of the deposited data

How the results depend on the processing

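With 2 arrays per group, the arrays' number limits every value. At 7 h only 48% of simulated log2 changes of 0.5 were recovered, in a run where larger changes eased the adjustment. No platelet or megakaryocyte gene passed limma under any alternative run, in any comparison. The median difference of the 8 genes at 7 h lay between -0.42 and -0.40 under the 9 alternatives that kept all arrays, and at 25 h between -0.03 and -0.01. The replicate block gave 1 gene called at 25 h, against 0 without it, and 9 between the times in mepenzolate lungs, against 4. It changed no call of the 8 genes. Same-numbered arrays did not vary together in every pair of groups, so the numbers were not taken as pairs. For the times in mepenzolate lungs the genes called were 1 without a filter, 1 with only the groups compared, and 0 under quantile normalization and under array weights. For the times in vehicle lungs they were 6 under quantile normalization, 33 with an intensity trend and 55 with array weights, against 13. In that comparison quantile normalization left 1 of the 8 genes lower and turned Alox12 to 0.0044, and median centring turned Tubb1 to -0.0023. The causes of these shifts were not tested.

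Leaving out single arrays lends the group with 1 array left the spread of the remaining groups. It gave 0 to 2 genes called at 7 h, 0 to 1 at 25 h, 0 to 2 for the average, 0 to 2 for the difference of the effects, 0 to 2 between the times in mepenzolate lungs and 0 to 14 in vehicle lungs, where the count was at most 1 without any one of the 4 vehicle arrays. The median of the 8 genes ranged from -0.61 to -0.24 at 7 h, from 0.14 to 0.60 for the difference of the effects and from 0.22 to 0.61 between the times in mepenzolate lungs, each extreme being reached without one of the mepenzolate arrays at 7 h. The number of genes that were lower ranged from 2 to 7 at 25 h (without mepenzolate replicates 2 and 1), from 1 to 2 for the difference of the effects, from 0 to 1 between the times in mepenzolate lungs and from 0 to 3 in vehicle lungs. The median at 25 h was 0.03 without mepenzolate replicate 2 and -0.11 without replicate 1. At 7 h Treml1 ranged from -0.26 to 0.10. At 25 h Alox12 ranged from -0.11 to 0.0029, Gp9 from -0.095 to 0.019, Itgb3 from -0.077 to 0.13, Ppbp from -0.29 to 0.36 and Tubb1 from -0.12 to 0.055. For the average Itgb3 ranged from -0.11 to 0.0100. For the difference of the effects Pf4 ranged from -0.091 to 0.14 and Treml1 from -0.25 to 0.11. Between the times Treml1 ranged from -0.15 to 0.21 in mepenzolate lungs. In vehicle lungs Alox12 ranged from -0.0044 to 0.0037, Gp9 from -0.12 to 0.18, Itga2b from -0.13 to 0.037 and Tubb1 from -0.045 to 0.069.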
